A study of Caenorhabditis elegans with 2 samples.

Results

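The genes described here are the protein-coding genes of Caenorhabditis elegans whose symbols begin with snr-, rsp-, prp-, sftb- or uaf-. They encode the Sm proteins, the SR proteins, pre-mRNA processing factors, subunits of the splicing factor SF3B and the subunits of U2AF. The rule took names from the Ensembl gene models and used no measured value, and it found 33 of the 19973 nuclear protein-coding genes. They comprised 7 Sm, 8 SR, 13 prp, 3 SF3B and 2 U2AF genes. The genes were chosen with earlier results of these data known, so the counts below describe them and are not independent support. The study mapped the sites on DNA occupied by the transcription factor EFL-1 by chromatin immunoprecipitation and sequencing (ChIP-seq). There was 1 group with 2 biological replicates, so no comparison between conditions was possible. Both replicates were made from intact hermaphrodites at the young adult stage, of strain YL479, a stable transgenic line in which EFL-1 carries a GFP-FLAG tag at its C-terminus. Their age is labelled unknown, and the labels do not say what drives the transgene. The immunoprecipitation used an anti-GFP antibody according to the description, whereas the antibody label reads efl-1. Chromatin was sheared by sonication. Per the deposited text, the authors' candidate lists were made with a control. The control experiment that the labels name as possible was not itself analysed here. A whole-animal list does not give the tissue in which a site was occupied, and occupancy in few cells cannot be told apart from weak occupancy in many.

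EFL-1 is a member of the E2F family, factors that bind DNA with a DP partner and are best known from the promoters of genes for cell division. With LIN-35, the worm retinoblastoma protein, it is part of the DREAM complex, which binds E2F-type sequences and, through LIN-54, CHR sequences. The spliceosome removes introns from pre-mRNA and is built from small nuclear ribonucleoproteins (snRNPs), most of them holding an RNA ringed by Sm proteins. SR proteins bind exons and recruit snRNPs and U2AF to splice sites. Many worm genes lie in operons, in which 1 promoter serves several genes, and others are arranged head to head with a shared upstream region.

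A gene was called bound if the summit of a reproducible peak lay within 500 bp of the start of any of its transcripts. Reproducible peaks are the 2179 nuclear peaks on the authors' list thresholded by the irreproducible discovery rate. The signal value of a peak was computed by the authors on an unstated scale and is used to describe and rank peaks within 1 list. The 1 exception is the ratio of replicate 1 to replicate 2, which also reflects any difference in scale or depth between these lists. Of the 33 splicing genes 14 were bound, which is 42.4% (95% Wilson interval 27.2 to 59.2%), beside a background of 8.89% of all nuclear protein-coding genes. The bound genes comprised 5 of 7 Sm genes, 6 of 8 SR genes, 2 of 13 prp genes, 1 of 3 SF3B genes and neither U2AF gene. The intervals cover counting error only, since the files give no read counts and the sequencing depth is unknown. The 14 genes used 12 peaks, because rsp-1 shared its peak with rsp-2, and rsp-5 shared its peak with snr-3. Genes that share a peak are not independent observations. A further 17 genes had only a weaker candidate among the 30000 peaks and background regions of the pooled list. In all, 31 of the 33 genes had a pooled candidate within 500 bp, where the background was 38.0% of all genes. Only prp-6 and prp-21 had none in the pooled list.

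**Figure D1:**
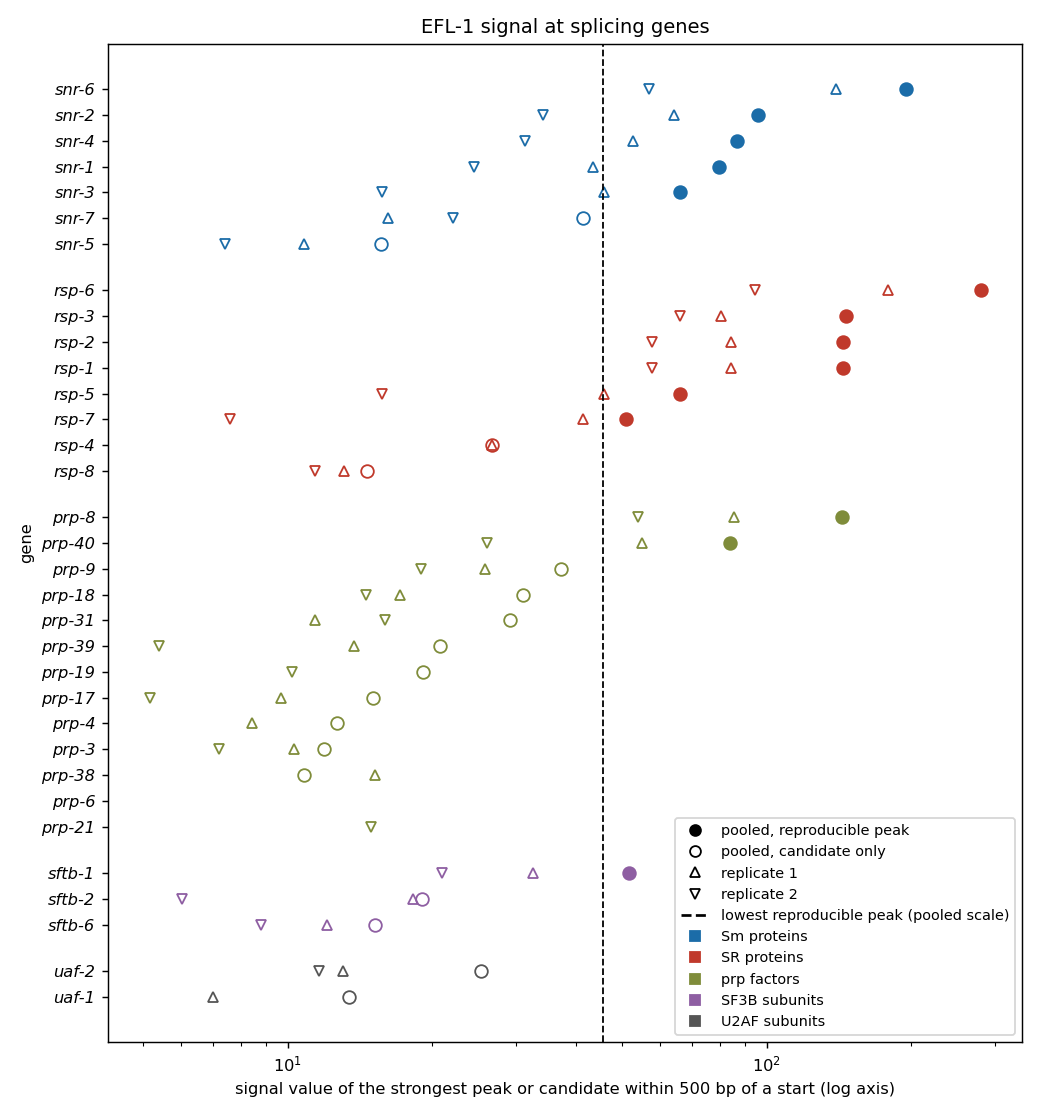
Signal value (log axis) of the strongest reproducible peak or candidate within 500 bp of a start for each splicing gene, by family. Circles are the pooled list, filled where the peak is reproducible. Upward and downward triangles are the strongest candidate near a start in replicates 1 and 2, which at some unbound genes is not the one that overlaps the pooled candidate, and the dashed line is the lowest reproducible pooled peak, at 45.6. Filled circles run between 50.8 at rsp-7 and 280.0 at rsp-6, and no open circle is above 41.4.

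The Sm proteins form the ring around most spliceosomal RNAs, and 5 of the 7 genes were bound, which is 71.4% (35.9 to 91.8%). The strongest Sm peak belonged to snr-6, which encodes SmE. It had a pooled signal of 195.0 and ranked 281 of the 2179 reproducible peaks, with 139.7 in replicate 1 and 56.7 in replicate 2. Its rank among the candidates was 233 in replicate 1 and 429 in replicate 2, so the peak was among the strong ones in both. The gene lies on the minus strand at chrIII:12429172-12429629, and the peak had its summit 259 bp upstream of the start, in intergenic sequence. No other protein-coding gene started within 500 bp of this summit.

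The Sm peak shown in full is that of snr-4, which encodes SmD2. Its pooled signal was 86.8, rank 980, with 52.6 in replicate 1 and 31.4 in replicate 2. The replicate ranks were 1051 and 1092, which placed it near the middle of the reproducible range in each. The gene lies on the minus strand at chrV:11978508-11979723 and the summit was 333 bp upstream of its start. This summit was also 62 bp from the start of T11F9.15, an snRNA gene on the plus strand at chrV:11980118-11980261, and the noncoding gene C52E4.14 spans it. The files do not tell which of these genes the occupancy belongs to. The sequence is shown because it held the match to the E2F octamer that was closest to a summit. It covers 100 bp either side of the summit, read on the strand of the gene from the RefSeq genome of build WBcel235 (ce11). At chrV:11979956-11980156, capitals mark the octamer TTTCGCGC, whose first base is 4 bases upstream of the summit.
snr-4: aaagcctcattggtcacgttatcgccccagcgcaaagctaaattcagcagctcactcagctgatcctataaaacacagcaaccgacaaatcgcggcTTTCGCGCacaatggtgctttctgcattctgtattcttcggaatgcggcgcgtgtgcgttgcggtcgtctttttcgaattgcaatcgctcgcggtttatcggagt

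The other bound Sm genes were snr-2, snr-1 and snr-3, all below snr-6 in signal. The gene snr-2, encoding SmB, had a pooled signal of 96.1, rank 844, with 64.2 in replicate 1 and 34.1 in replicate 2. Its summit was 403 bp upstream of the start and 63 bp upstream of W08E3.4 on the opposite strand, so the neighbour was the nearer gene. The gene snr-1, encoding SmD3, had 79.6 in the pooled list, rank 1101, with 43.4 in replicate 1 and 24.5 in replicate 2. Its summit was 385 bp upstream and 226 bp upstream of snx-13, a sorting nexin gene. The gene snr-3, encoding SmD1, had 66.03, rank 1383, with 45.8 in replicate 1 and 15.8 in replicate 2, at a summit 199 bp upstream of snr-3 and 205 bp upstream of rsp-5. The unbound Sm genes were snr-7, encoding SmG, and snr-5, encoding SmF. The best candidate of snr-7 had a pooled value of 41.4, just under the lowest reproducible value of 45.6. The candidates matched to it had 16.2 in replicate 1, rank 6449, and 13.4 in replicate 2, rank 4492. Another candidate of replicate 2 near the same start had 22.1, rank 1821. That of snr-5 had a pooled value of 15.7, with 10.8 in replicate 1 and 7.41 in replicate 2, well below every bound Sm gene.

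SR proteins carry RNA recognition motifs and a tail rich in arginine and serine, and 6 of the 8 genes were bound, which is 75% (40.9 to 92.9%). The highest signal at any of the 33 genes was at rsp-6, whose product is close to human SRp20. The pooled signal was 280.0, rank 136 of 2179, with 179.2 in replicate 1 and 94.5 in replicate 2. The ranks were 141 in replicate 1 and 172 in replicate 2, close to the pooled one. It was the strongest of the 12 peaks in all 3 lists. The gene lies on the minus strand at chrIV:7789847-7791229, and the summit was 166 bp upstream of its start and between genes. The next gene upstream, C33H5.13, is on the same strand and ends 474 bp before rsp-6, and the summit lay 475 bp downstream of the start of C33H5.13. The sequence is shown because it holds the strongest peak and an octamer. It covers chrIV:7791295-7791495 on the minus strand of the same RefSeq build, and capitals mark TTTCGCGC, whose first base is 45 bases downstream of the summit. The heptamer TTCGCGC also occurs from 59 bases upstream of the summit, in lower case.
rsp-6: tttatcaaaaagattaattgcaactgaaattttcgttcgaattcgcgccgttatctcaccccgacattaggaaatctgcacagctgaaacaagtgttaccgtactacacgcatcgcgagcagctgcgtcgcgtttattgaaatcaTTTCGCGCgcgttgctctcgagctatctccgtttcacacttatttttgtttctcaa

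The gene rsp-3 encodes the worm counterpart of the human splicing factor SF2/ASF. It had a pooled signal of 146.2, rank 460, with 80.4 in replicate 1 and 66.02 in replicate 2. Its summit, at 253 bp upstream of the start on chrIII, lay 143 bp upstream of spin-4, a divergent gene of the Spinster family. The genes rsp-1 and rsp-2 lie head to head on chrII with 406 bp between them, and 1 peak at 144.4, rank 471, lay in that gap. It had 84.3 in replicate 1 and 57.6 in replicate 2, and its summit was 160 bp upstream of rsp-1 and 247 bp upstream of rsp-2. The start of rsp-1 used here belongs to a transcript that is not annotated as protein-coding, and the gene was not bound when only protein-coding transcripts were counted. Both genes are SR genes, so the peak serves a pair from 1 family. The peak between rsp-5 and snr-3 instead serves an SR gene and an Sm gene, which lie head to head on the same chromosome with 403 bp between them.

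The weakest bound SR gene was rsp-7. Its pooled signal was 50.8, rank 1921, with 41.4 in replicate 1 and 7.59 in replicate 2. The replicate 2 value ranked 15670 among the candidates of that replicate, whereas the replicate 1 value ranked 1426. The peak is shared with snu-13, a gene for a protein of the U4 snRNP, with its summit 220 bp upstream of rsp-7 and 360 bp upstream of snu-13. The noncoding gene M28.13 spans the summit. The unbound SR genes were rsp-4, the counterpart of human SC35, and rsp-8, related to the splicing regulator Tra2. The best candidate of rsp-4 had 26.8 in the pooled list and 26.8 in replicate 1, and there was none in replicate 2. That of rsp-8 had a pooled value of 14.7, with 10.3 in replicate 1 and 10.9 in replicate 2. The nearest reproducible summit to a start of rsp-8 was 945 bp away, outside the limit.

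**Figure D2:**
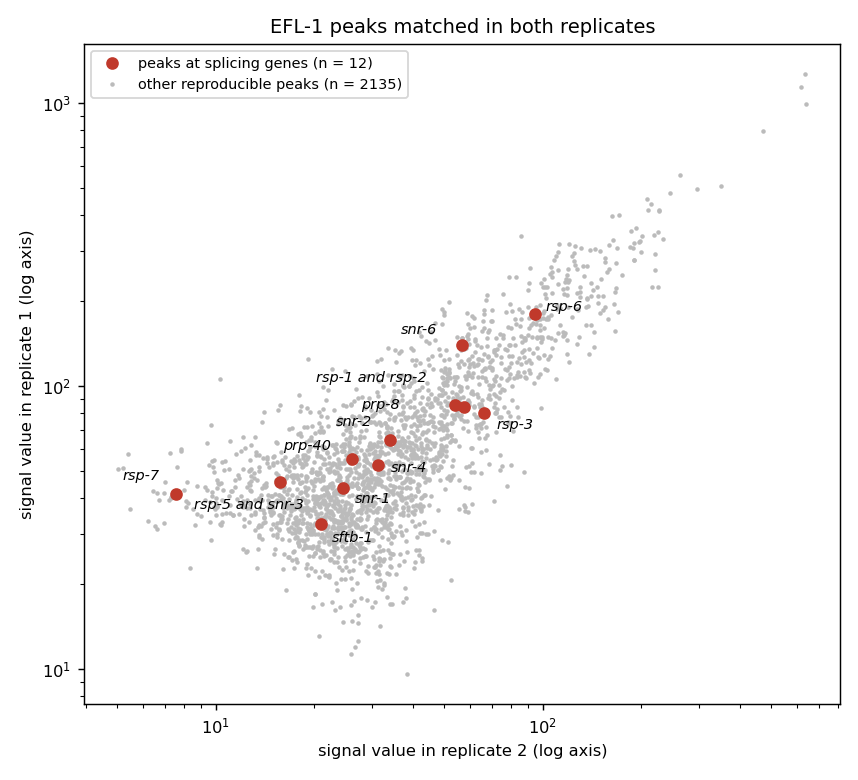
Signal value of reproducible EFL-1 peaks in replicate 1 against replicate 2 (both log axes), for the 2147 peaks matched in both. Red points are the 12 peaks at splicing genes and grey points are the others. The point of rsp-7, at 41.4 in replicate 1 and 7.59 in replicate 2, lies at the left edge of the cloud, and rsp-6 is the highest red point on both axes.

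The prp genes are named after factors found in yeast as mutants in pre-mRNA processing, and 2 of the 13 were bound, which is 15.4% (4.33 to 42.2%) beside the background of 8.89%. The strongest was prp-8, encoding the large protein at the catalytic centre of the spliceosome in the U5 snRNP. It had a pooled signal of 143.6, rank 474, with 85.4 in replicate 1 and 53.9 in replicate 2. The gene lies on the plus strand at chrIII:8164373-8172710, and the summit was 327 bp upstream of the start with no other protein-coding start within 500 bp. The gene prp-40, whose yeast counterpart acts with the U1 snRNP, had 84.0, rank 1020, with 55.0 in replicate 1 and 26.1 in replicate 2. From high to low signal, rsp-3 stood before the rsp-1 and rsp-2 peak and that before prp-8 in the pooled list and in replicate 2, but they stood in the reverse order in replicate 1, so they are not separated beyond the replicate spread. The summit at prp-40 was 181 bp upstream of prp-40 and 434 bp upstream of clu-1, a divergent gene of the clueless family. The sequence at prp-8 is shown as that of the strongest prp peak. It covers chrIII:8163946-8164146 on the plus strand, and capitals mark the CHR hexamers TTTGAA from 25 bases upstream and TTCGAA from 83 bases downstream of the summit.
prp-8: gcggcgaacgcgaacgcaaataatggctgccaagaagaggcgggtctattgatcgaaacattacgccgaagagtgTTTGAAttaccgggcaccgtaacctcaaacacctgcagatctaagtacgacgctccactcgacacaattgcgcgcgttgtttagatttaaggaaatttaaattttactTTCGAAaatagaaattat

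The remaining 11 prp genes were unbound, and 9 of them had a pooled candidate. The closest to the limit were prp-9, an SF3A subunit of the U2 snRNP, with a pooled value of 37.3 (25.8 in replicate 1 and 19.0 in replicate 2), and prp-18, a factor of the second catalytic step, with 31.1 in the pooled list. The gene prp-31, a component of the U4/U6.U5 tri-snRNP, had 29.1, and prp-39, whose yeast counterpart belongs to the U1 snRNP, had 20.8. The gene prp-19, encoding the ubiquitin ligase of the complex named after it, had 19.2, and its nearest reproducible summit was 658 bp away. The other candidates were 15.1 at prp-17, 12.7 at prp-4, 11.9 at prp-3 and 10.8 at prp-38. All 9 were therefore below every reproducible peak in the list. The gene prp-21, another SF3A subunit, had a candidate of 14.95 in replicate 2 and none in the other lists, and prp-6, a tri-snRNP protein, had none in any list.

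SF3B and U2AF recognise the branch point and the 3' splice site. The gene sftb-1, for the largest SF3B subunit, was bound, with a pooled signal of 51.6, rank 1885, and 32.5 in replicate 1 and 21.0 in replicate 2. Its summit was 411 bp upstream of the start, the farthest of the 14 genes, and 62 bp upstream of the divergent gene R10E4.1. This was therefore a weak peak far nearer to another start. The candidates at sftb-2 and sftb-6 had 19.1 and 15.2 in the pooled list. The candidate at uaf-2, the small U2AF subunit, had a pooled value of 25.3, with 11.5 in replicate 1 and 11.6 in replicate 2. That at uaf-1, the large subunit, had 13.5 in the pooled list and 6.98 in replicate 1, with none in replicate 2. Neither U2AF gene came near the lowest reproducible value.

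All 12 peaks overlapped a candidate in each replicate. The same distance rule applied to the 2179 strongest nuclear candidates of each replicate called 14 of the 33 genes in replicate 1, beside a background of 8.96%, and 12 in replicate 2, beside a background of 8.30%. Both replicates called 11 genes. Of the 12 peaks, 10 were matched among the strongest candidates of both replicates, as were 69.4% of all reproducible peaks, and the exceptions were the rsp-7 peak and the peak of rsp-5 and snr-3, through replicate 2. The signal in replicate 1 was a median of 1.83 times that in replicate 2 at the 12 peaks, and 1.70 times over the 2147 reproducible peaks matched in both. The ratio ran between 1.22 and 5.45 at the 12 peaks, with 5.45 at rsp-7. Over the matched peaks the 5th and 95th percentiles of the ratio were 0.808 and 3.80, and 27 of them, 1.26%, had a ratio at least as high as that of rsp-7. Summits moved little: against the pooled summit the median shift was 13.5 bp in replicate 1 and 10 bp in replicate 2, and the largest was 49 bp in replicate 1 and 43 bp in replicate 2.

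The median pooled signal of the 12 peaks was 91.4, beside 91.0 for the 1389 reproducible peaks within 500 bp of a protein-coding start and 80.2 for all 2179. The splicing peaks thus lay around the middle of the peaks near starts, with 6 of 12 above that median. Every one of the 14 bound genes had its summit upstream of the start and between protein-coding genes. The summit was a median of 250 bp upstream (range 160 to 411), against 173 bp over all 1775 bound genes, of which 90.4% had it upstream. At 10 of the 14 genes the summit was farther than 200 bp, as at 46.6% of all bound genes. Only 4 of the 33 genes, rsp-1, rsp-6, snr-3 and prp-40, had a summit within 200 bp, where the background was 4.75%.

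**Figure D3:**
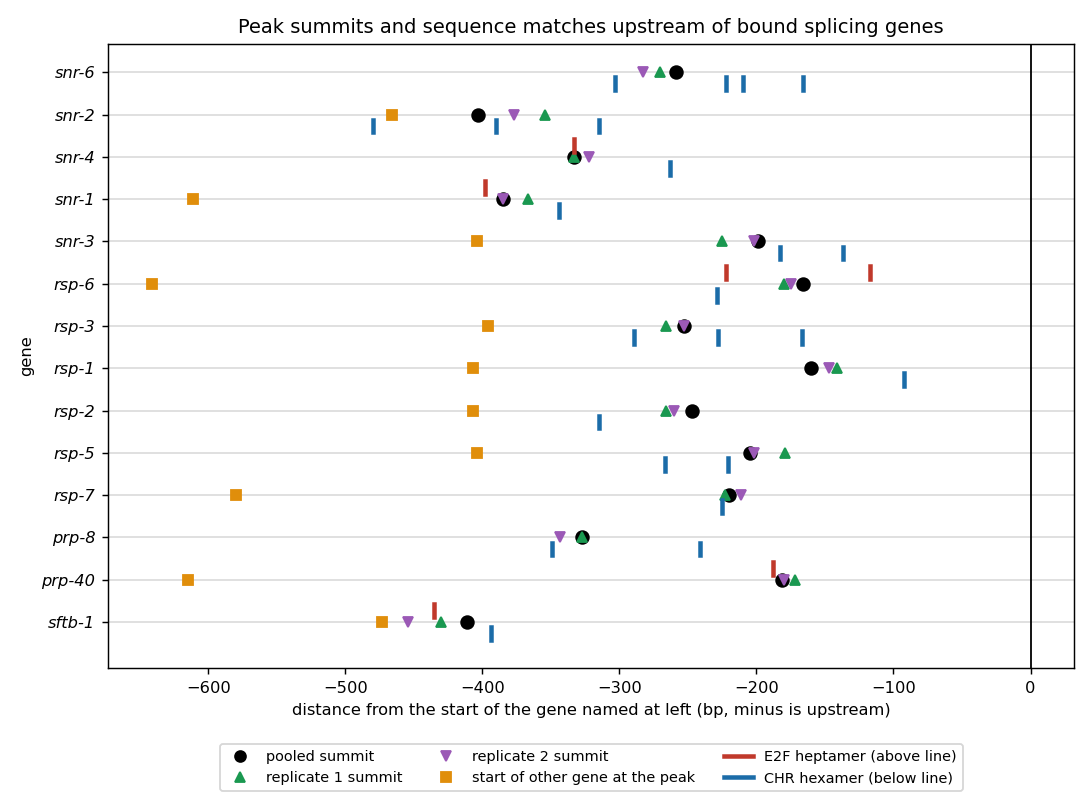
Position of peak summits and sequence matches relative to the start of each bound splicing gene (x axis in bp, minus is upstream). Circles are pooled summits, triangles replicate summits, and squares the start of the other gene served by the peak. Red ticks are E2F heptamers and blue ticks CHR hexamers within 100 bp of the summit. Every summit lies upstream, between 160 and 411 bp in the pooled list, and squares appear at 11 of the 14 genes (for C33H5.13 on the same strand, at the others on the opposite strand).

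The arrangement of the genes was described by counts. Among the 33 genes, 23 had a divergent protein-coding gene starting within 1000 bp upstream, beside 17.4% of all genes. Of these 23 genes 12 were bound, which is 52.2%, beside 24.3% of all divergent genes. The bound genes without such a neighbour were rsp-6 and snr-4. Of the 12 peaks, 9 were within 500 bp of the start of more than 1 protein-coding gene, beside a background of 29.7% of peaks near starts. Such peaks served 11 of the 14 bound genes, and at 6 of these the partner's start was the nearer: snr-1, snr-2, rsp-2, rsp-3, rsp-5 and sftb-1. ChIP-seq cannot assign a shared peak to either gene. Only snr-6, snr-4 and prp-8 had a peak that served no other protein-coding gene.

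A second arrangement is a gene that follows another on the same strand, as in operons. Taking a gap of at most 500 bp, 5 of the 33 genes followed such a neighbour, beside 20.2% of all genes: prp-3, prp-38, prp-39, rsp-4 and rsp-6. Of these only rsp-6 was bound, where the background among all followers was 7.83%. Each of the 4 unbound followers came directly after a bound gene, whereas 21.0% of all unbound followers had a bound gene anywhere upstream in their run. The neighbour of rsp-4 was ndx-6, a Nudix hydrolase gene whose annotation overlaps rsp-4 by 8 bp (gap -8), with a peak of 285.1 located 252 bp upstream of ndx-6. The neighbour of prp-38 was plrg-1, itself a gene for a Prp19-complex protein, with a peak of 71.3 and a gap of 106 bp. The neighbour of prp-39 was hmgs-1, the gene for HMG-CoA synthase, with 97.2 and a gap of 90 bp. That of prp-3 was smrd-1, with 74.9 and a gap of 344 bp. The hmgs-1 peak also served F25B4.4, and the smrd-1 peak also served enu-3.1. Whether the 4 unbound followers are transcribed together with these neighbours was not tested. Upstream of rsp-6 the run contained C33H5.13, ntp-1 and sgo-1, the gene for shugoshin, which had a peak of its own at 361.3.

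Sequences were searched on both strands within 100 bp of each summit. The E2F-type octamers were TTTCCCGC, TTTCGCGC, TTTGCCGC and TTTGGCGC, and the heptamers were the same words without their first T, so every octamer contains a heptamer. An octamer occurred at 2 of the 12 peaks, rsp-6 and snr-4, beside 19.0% of the 1389 peaks near starts and 4.51% of other pooled candidates near starts. A heptamer occurred at 5, beside 34.6% of peaks near starts and 9.11% of the other candidates. The further matches were TTGGCGC at prp-40, centred 7 bp from the summit, TTCCCGC at snr-1, centred 13 bp away, and TTGGCGC at sftb-1, centred 24 bp away. These 3 and the snr-4 match, centred on the summit, lay close to it, whereas those at rsp-6 were about 49 bp away or farther. The CHR hexamers TTCGAA and TTTGAA, of which TTCGAA is its own reverse complement, occurred at 11 of the 12 peaks, beside 61.7% of peaks near starts and 52.3% of the other candidates. The exception was prp-40, and 8 of 12 had a hexamer within 50 bp, beside 39.4% of peaks near starts. The word CGCGCG, which overlaps TTTCGCGC in part, was found at rsp-6, prp-8 and sftb-1, beside 15.6% of peaks near starts. The median GC content of the 12 windows was 42.3%, beside 38.8% at peaks near starts and 36.3% at the other candidates. A match is only a description of the letters, and binding at these positions was not tested.

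Other genes of the pathway were taken from a list of 83 names in 8 groups, of which 79 matched the annotation. The list was chosen with earlier results of these data known, so its share is a description and not independent support. Of the 79 genes 29 were bound, which is 36.7% (26.9 to 47.7%), beside the background of 8.89%. The signals of these 29 genes ran between 50.6 and 314.2 with a median of 101.1. The strongest candidates of each replicate called 30 of the 79 genes in replicate 1, beside 8.96%, and 21 in replicate 2, beside 8.30%. For 14 of the 29 genes the peak also served another gene. The peak of snu-13 is that of rsp-7, so it is counted in both sets of genes. An octamer was found at 4 of the 29, ddx-46, eftu-2, isy-1 and smn-1, a heptamer at 6 and a CHR hexamer at 23. The shares of peaks near starts were 19.0% for the octamer, 34.6% for the heptamer and 61.7% for the hexamer. The group of tri-snRNP proteins, helicases and Prp19-related factors had 13 of 26 bound. By the strongest candidates of each replicate, this group had 13 bound in replicate 1 but 7 in replicate 2. Its strongest were smu-1, for a spliceosomal protein studied in alternative splicing, with 314.2, and syf-3, a counterpart of a yeast SYF gene, with 234.4. Next came teg-1, whose peak of 200.2 was shared with mcm-10, a replication gene, and then syf-2, another SYF counterpart, with 188.4. The group also held isy-1 with 175.6 and the DEAH-box helicase gene mog-4 with 91.1.

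Genes acting on Sm and SR proteins were among the bound ones. The gene smn-1, whose product loads Sm proteins onto snRNAs, had a pooled signal of 272.6, with 153.3 in replicate 1 and 116.8 in replicate 2. Its peak was shared with klp-16. The gene prmt-5, for an arginine methyltransferase that modifies Sm proteins in other animals, had 61.3, so 2 of 4 assembly genes were bound. Of the SR kinases and SR-related proteins 5 of 8 were bound, led by rsr-1, the counterpart of human SRm160, with 281.2. They included spk-1, the SR protein kinase, with 63.3. The rsr-1 summit lay 461 bp upstream and its peak was shared with sri-5, and the spk-1 peak was shared with rheb-1. The U6 LSM group had 3 of 7 bound, with 105.3 at lsm-5, 63.0 at lsm-7 and 53.7 at lsm-6. The hnRNP, exon junction and UAP56 group had 4 of 11, with 205.8 at hel-1, the UAP56 helicase, and 166.3 at hrpk-1. Of the spliced leader group 1 of 4 was bound, sna-2, with 152.7. The U1, U2 and SF3 group had 1 of 10, ddx-46 with 93.6, close to the background share. Of 9 regulators of alternative splicing known for restricted tissues none was bound (0%, Wilson upper limit 29.9%), an interval that includes the background of 8.89%. Some of them lie on X, where 2.12% of all genes were bound. A weaker candidate was present at 5 of the 9, where 38.0% of all genes had a pooled candidate.

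**Figure D4:**
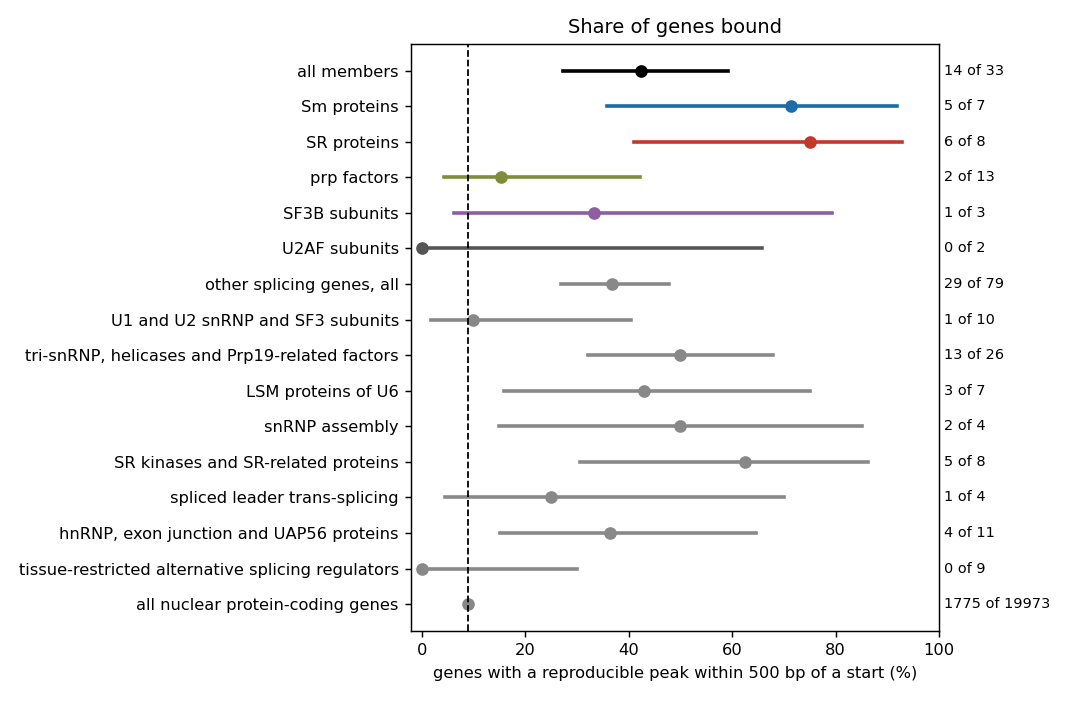
Share of genes with a reproducible EFL-1 summit within 500 bp of a start (x axis, percent), with 95% Wilson intervals as lines. The families of the 33 splicing genes are in colour above the grey groups of other splicing genes, and the dashed line is the share of all nuclear protein-coding genes, 8.89%. Sm and SR genes lie at 71.4% and 75%, and the intervals of the prp, SF3B and U2AF families reach across the dashed line.

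The 33 genes lie on 5 chromosomes and none on X, where 2.12% of the 2731 genes were bound. The bound counts were 1 of 5 on chromosome I (beside 14.1% of all its genes), 5 of 9 on II (9.71%), 5 of 10 on III (14.8%), 2 of 4 on IV (9.23%) and 1 of 5 on V (5.65%). The single bound gene of the first of these is snr-2, at chrI:13339397-13340224, and the unbound snr-7 lies at chrI:2727014-2727545.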

How the data were processed

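EFL-1 ChIP-seq peak lists on build ce11 from 2 biological replicates (1 group, per the labels) were used. Per the text deposited with the samples, the candidate lists were made from each replicate's alignments with a control, the pooled list from both replicates, and the optimal list by thresholding these on the irreproducible discovery rate (IDR). For the aligner, peak caller, versions and IDR threshold: not given in the sources used here. Peak strength is the deposited signal value, computed by the authors on an unstated scale. The deposited −log10 q-value was not used to rank peaks. No read counts are given, so depth is unknown.

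Summits were compared with starts of all transcripts of protein-coding genes in Ensembl release 115 (WBcel235, the same assembly as ce11), using Python 3.11.15, numpy 2.4.6, pandas 2.3.3, scipy 1.17.1 and matplotlib 3.10.9. A replicate candidate matched a peak at an overlap of at least 1 bp, taking the strongest. Mitochondrial peaks were left out, which reduced the 2207 listed peaks to 2179, and the strongest 2179 candidates of each replicate were compared. Coordinates count from base 1. Wilson intervals are at 95%. With 1 group no test was run, and the steps were checked on simulated peaks. Every gene matching the name rule is accounted for, and of the other splicing genes those bound could be named. The genes and lists were chosen with earlier results of these data known. The names mog-6, ncm-1, lsm-2 and hrp-2 matched no gene. Alternatives were the reach from a start, the stronger 50% of peaks, each replicate alone, the nearest start alone, the run of same-strand genes, the overlap and the sequence window; protein-coding transcript starts and replicate summits were added after seeing the data.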

Additional observations from a re-analysis of the deposited data

How the results depend on the processing

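Reach mattered most. Within 200 bp of a start 4 of the 33 splicing genes were bound in place of 14, 14 of the other splicing genes in place of 29, and 13 splicing genes had a pooled candidate in place of 31; the peaks left there had a median signal of 114.2, and 1 held an octamer, 2 a heptamer and 3 a CHR hexamer. Within 1000 bp 16 were bound, prp-19 and rsp-8 being added. Of all 19973 protein-coding genes 948 were bound within 200 bp and 2256 within 1000 bp. The stronger 50% of peaks left 9 bound splicing genes, without rsp-5, rsp-7, sftb-1, snr-1 and snr-3, and 18 of the other splicing genes. Assigning each peak to its nearest start alone left 8, without rsp-2, rsp-3, rsp-5, sftb-1, snr-1 and snr-2. Counting a run of same-strand genes as bound with its first gene gave 17, adding prp-3, prp-38 and prp-39. No background share is given for candidates within 200 bp, the stronger 50% of peaks, the nearest start or the runs. Whether those counts moved more or less than the share of all genes is therefore not shown. Within 50 bp of the summit 1 peak had an octamer, beside 15.6% of peaks near starts.

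Leaving out 1 replicate gave 12 to 14 bound genes. Replicate 2 alone lost rsp-5, rsp-7 and snr-3 and gained snr-7. The median signal was 32.7 without replicate 1 and 59.6 without replicate 2, on the scale of each replicate's own list, and the median distance 256.5 bp without replicate 1 and 266 bp without replicate 2. Protein-coding transcript starts alone, chosen after seeing the data, lost rsp-1 and gave 13. No paired analysis was possible because there was 1 group. For the other splicing genes the count of 29 became 21 without replicate 1, 30 without replicate 2 and 20 with the nearest start alone. It became 38 with runs of same-strand genes and 35 within 1000 bp. These shifts stayed within the limit set for a change, but several are not small. No further alternative changed a count or value beyond that limit, and 0 reversed.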

Other observations

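The RNA components of splicing were not part of the protein-coding rule. A reproducible summit lay within 100 bp of 9 of the 129 annotated snRNA genes. Of the 18 sls-2 genes, which encode the spliced leader RNA added to downstream operon genes, 4 had one. Their pooled signals were 346.2 at sls-2.8, 164.2 at sls-2.1, 149.2 at sls-2.4 and 94.2 at sls-2.2. The replicate values at sls-2.8 were 233.6 in replicate 1 and 119.5 in replicate 2, and the starts of tim-1 and Y75B8A.23 lay within 500 bp of that summit. None of the 12 annotated sls-1 genes, which encode the other spliced leader, had a summit within 100 bp. The share of all genes with a summit within 100 bp was not computed, so none of these counts is set against a background. The sequences of the sls genes were not compared here, and no source used here states how reads with several matches were treated. The assignment among any similar copies is therefore uncertain.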
